A study of Homo sapiens with 12 samples.

Results

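The earliest step of a hypoxia time course in HCT116, an established human colorectal cancer cell line, was examined by comparing 3 libraries of cells held at 1% O2 for 1 h with 3 libraries of cells kept at 21% O2 (0 h). These 6 libraries are all those of the 0 h and 1 h time points among the 12 of the series, whose other libraries come from cells held at 1% O2 for 2 h or 24 h, again with 3 biological replicates each. No other agent or genotype differed between the groups. RNA was poly(A)-selected, and the level of a gene was the sum of FPKM (sequenced fragments scaled for transcript length and for the number mapped in a library) over its annotated transcripts and the variants that share a splice junction with them. This gave 15758 genes that could be tested, out of 56537 gene names. The cells entered low oxygen in a hypoxia workstation one day after plating. Whether the 0 h cultures were handled in the same way is not given in the sources used here, so transfer of the cultures and low oxygen cannot be told apart.

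Oxygen is sensed in the cytoplasm by prolyl hydroxylases, which mark the alpha subunits of the hypoxia-inducible factors (HIF) for destruction by the VHL ubiquitin ligase while oxygen is plentiful. When oxygen falls the alpha subunits persist, enter the nucleus and raise transcription of genes for glucose uptake, glycolysis, angiogenesis and autophagy. Immediate early genes are a different class. They are short genes, among them FOS, JUN and EGR1, whose transcription starts within minutes of a stimulus to the mitogen-activated protein (MAP) kinases without new protein synthesis, and whose mRNA is short-lived.

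The libraries carried the epithelial genes of the line, with EPCAM between 224 and 348 FPKM, KRT8 between 815 and 1191 FPKM and CDX2, the intestinal transcription factor, between 6.19 and 9.02 FPKM over the 6 libraries. VIL1, CDX1, GPA33, LGALS4, CEACAM5 and TFF3, which mark differentiated colonic epithelium, lay under the filter on low values. Of 6 fibroblast markers 1 passed that filter (COL1A1, 0.916 to 1.97 FPKM) and of 8 blood and endothelial markers also 1 (CD68, 1.74 to 2.59 FPKM). Pearson's r across genes, which are not independent replicates, was 0.981 to 0.986 among the 0 h libraries, 0.978 to 0.985 among the 1 h libraries and 0.972 to 0.987 between them. Replicate 3 of the 1 h group stood apart in the sum of its FPKM, 4249410 against 2161130 and 2486150 for replicates 1 and 2, of which transcripts under 300 bases held 84.1%, 69.0% and 72.8%. Over transcripts of at least 300 bases the sums were close to each other, 674798, 669130 and 676435. The deposited values come without read counts, so the depth behind each of them is unknown here. Precision rests on the spread within groups of 3 libraries, pooled over the 12 libraries of the series in the main fit.

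After 1 h, few genes could be called different from 0 h once p was adjusted for the number of genes tested. With limma on log2(FPKM + 0.5), fitted over all 12 libraries and adjusted by the Benjamini-Hochberg method over the 15758 genes, 1 gene (0.00635%) was called higher and 0 were called lower at an adjusted p under 0.05. At an unadjusted p under 0.05 there were 680 genes (4.32%), of which 311 (1.97%) had a higher and 369 (2.34%) a lower mean. In 1000 genes (6.35%) every 1 h library lay above every 0 h library, and in 1123 (7.13%) every 1 h library lay below. The median log2 fold change of all genes was -0.01. RNA came from whole cultures, so fewer cells that express a gene and less of its RNA per cell cannot be told apart.

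The called gene was RNVU1-16, a variant U1 small nuclear RNA of 165 bases on chromosome 1 (148766938 to 148767102, minus strand, GRCh37). Spliceosomal U1 RNA is not polyadenylated, and its many variant copies share most of their sequence. RNVU1-16 was listed at 0 in each 0 h library and at 3.73, 3.35 and 1.5 FPKM at 1 h (limma adjusted p = 0.00446). The call was lost without 1h replicate 2 (adjusted p = 0.0553) and with only the 6 libraries of 0 h and 1 h in the fit (adjusted p = 0.357). RNVU1-15, a copy of the same length, had the same 3 values at 1 h and 0, 2.69 and 0 FPKM at 0 h (limma adjusted p = 0.997), so the groups overlapped in it. An exact 0 may be a failed estimate in these files, since all 13 protein-coding genes of the mitochondrial genome were above 0 in 0 h replicate 1 and listed at 0 in the other 5 libraries. With transcripts under 300 bases left out of the gene sums, RNVU1-16 was not tested and 0 genes were called (654 at an unadjusted p under 0.05).

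The highest log2 fold change of the 15758 genes was that of EGR1, a zinc finger transcription factor and immediate early gene on chromosome 5. EGR1 stood at 9.43, 10.4 and 12.2 FPKM at 0 h and at 86.4, 72.7 and 332 FPKM at 1 h. The lowest 1 h library was thus well above the highest 0 h library, while replicate 3 lay far above the other two. The log2 fold change was 3.53 (SE 0.60, 95% interval 2.23 to 4.83), and the limma adjusted p was 0.359. Without 1h replicate 3 it was 2.84 (adjusted p = 0.660). FOS, which pairs with JUN proteins to form the transcription factor AP-1, was at 2.01, 1.83 and 1.99 FPKM at 0 h and at 9.39, 8.20 and 51.7 FPKM at 1 h. Its log2 fold change was 2.76 (SE 0.57, limma adjusted p = 0.621), and 1.92 without 1h replicate 3 (adjusted p = 0.660). Neither gene passed the adjusted test as deposited, although the groups did not overlap in either. In TPM, where each library is scaled to the same sum of FPKM, both were called, EGR1 with a log2 fold change of 2.85 (limma adjusted p = 1.07e-06) and FOS with 1.97 (adjusted p = 0.000857). Replicate 3 had the highest sum of the 1 h libraries, 84.1% of it in transcripts under 300 bases, so this scaling lowered its values the most. With the replicate number as a block the EGR1 log2 fold change at 1 h had a limma adjusted p of 0.0496.

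EGR1 and EGR2, its paralog, carry in the 300 bases around their start the CArG box, the DNA element bound by serum response factor (SRF), which drives many immediate early genes. The RefSeq promoter table (GRCh38.p14, 250 bases before to 50 after each start) held a CArG box on either strand in 1.29% of 35116 promoters and in 3 of the 35 promoters matched for the immediate early list, those of EGR1, EGR2 and SRF. The windows are shown because EGR1 had the highest log2 fold change and EGR2 was listed at 0 in each 0 h library, with the box in capitals and each sequence read 5′ to 3′ on the strand of the gene.
EGR1, chr5:138465364-138465393, plus strand, box starting 105 bases before the start: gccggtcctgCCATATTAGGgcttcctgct
EGR1, chr5:138465386-138465415, plus strand, box starting 83 bases before the start: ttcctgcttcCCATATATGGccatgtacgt
EGR2, chr10:62816418-62816447, minus strand, box starting 71 bases before the start: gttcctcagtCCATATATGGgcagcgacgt
A palindromic cAMP response element, TGACGTCA, was found in 1.85% of all promoters and in those of MAFF, JUND and ZFP36L1 of the early list, of DUSP1 and DUSP8 among the MAP kinase feedback genes, and of AREG. For MAFF, DUSP1 and AREG, which were among the 10 genes with the smallest p that lay higher at 1 h, the window is given with the element in capitals.
MAFF, chr22:38201930-38201957, plus strand: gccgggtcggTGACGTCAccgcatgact
DUSP1, chr5:172771303-172771330, minus strand: gcagggcgggTGACGTCAccgccccgtc
AREG, chr4:74445061-74445088, plus strand: ggccgggcctTGACGTCAtgggctgcgg
These matches describe the sequence only, and binding was not measured.

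Of the 36 AP-1 and immediate early genes listed, 35 passed the filter (NR4A3 did not). In 22 of them (62.9%, against 6.35% of all genes) every 1 h library lay above every 0 h library, and in 0 every 1 h library lay below. This list and the others were chosen with earlier results of these data known, so such shares describe the lists and test nothing. None was called by limma, and 19 had an unadjusted p under 0.05 with a higher mean. The list's median log2 fold change was 0.60 against -0.01 for all genes. In TPM the median of all genes moved to -0.54 and that of the list to -0.00, so that 17 of 35 members stayed above 0 and the list lay 0.54 above all genes. On that scale 6 members (17.1%, against 0.216% of all genes) had every 1 h library above and 2 (5.71%, against 34.6%) had every one below. The count of 22 was 26 (74.3%, against 13.0% of all genes) without 1h replicate 3, and the median was then 0.43.

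**Figure D1:**
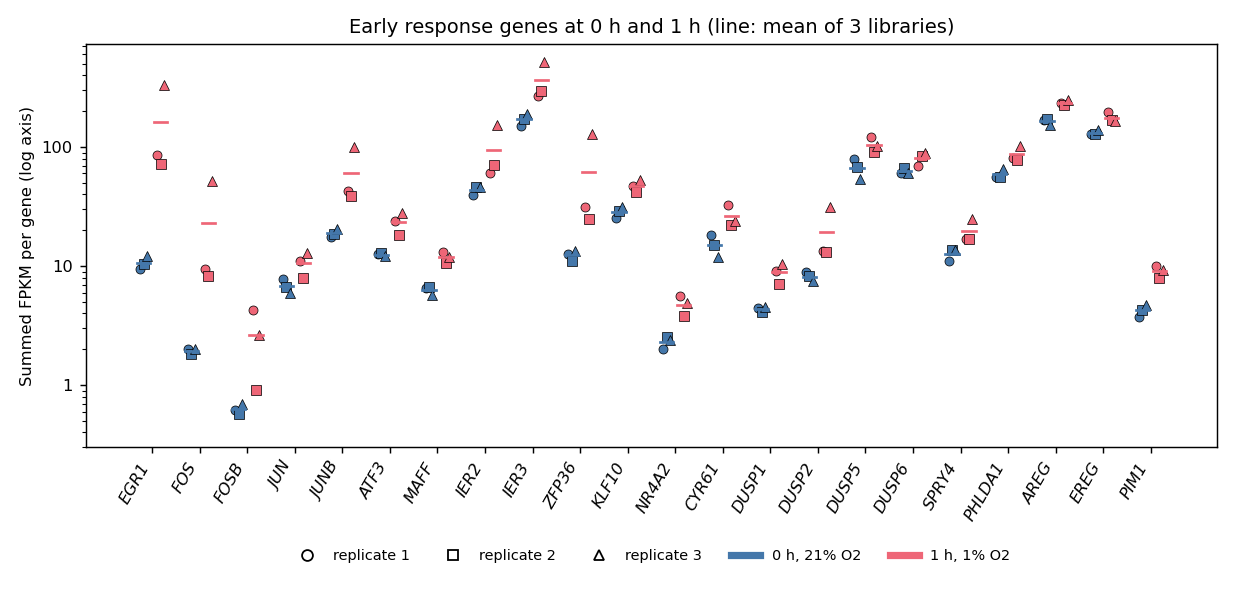
Summed FPKM of 22 early response genes (log axis) in the 3 libraries at 0 h and the 3 at 1 h, one symbol per replicate, with a line at the mean. The genes were chosen after their values were seen, among those whose groups did not overlap, so the separation of the symbols was set by the choice. Replicate 3 at 1 h is the highest by far for EGR1, FOS, JUNB, IER2 and ZFP36; values are as deposited, not scaled between libraries.

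Among the AP-1 subunits, JUNB, a JUN family protein, was at 17.5, 18.8 and 20.7 FPKM at 0 h and at 42.3, 38.8 and 99.5 FPKM at 1 h (log2 fold change 1.51, SE 0.40). FOSB was at 0.612, 0.577 and 0.7 FPKM and then at 4.31, 0.911 and 2.66 FPKM (1.3, SE 0.45). JUN was at 7.78, 6.64 and 5.91 FPKM and then at 11.1, 7.94 and 13.0 FPKM (0.60, SE 0.19). The groups were apart in each of these, by little in JUN, whose log2 fold change was -0.00 in TPM. The groups overlapped in FOSL1 (117 ± 22.7 against 131 ± 37.3 FPKM, SD, n = 3), FOSL2 (8.24 ± 0.959 against 8.42 ± 1.01 FPKM) and JUND, which was at 27.8, 32.2 and 37.6 FPKM at 0 h and at 34.2, 37.6 and 70.2 FPKM at 1 h (0.47, SE 0.31). ATF3, a stress-responsive member of the same bZIP family, was at 12.6, 12.8 and 12.1 FPKM at 0 h and at 23.8, 18.4 and 28.0 FPKM at 1 h. MAFF, a small MAF protein that lacks a transactivation domain, was at 6.53, 6.68 and 5.77 FPKM and then at 13.2, 10.6 and 11.8 FPKM. MAFF had a log2 fold change of 0.86 (SE 0.15, limma adjusted p = 0.456), and replicate 3 was not the highest of its 1 h libraries.

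The other immediate early genes covered several functions. ZFP36, which binds AU-rich elements and speeds the decay of short-lived mRNAs, was at 12.6, 11.1 and 13.4 FPKM at 0 h and at 31.2, 25.1 and 129 FPKM at 1 h, and its log2 fold change was 1.88 with all libraries and 1.15 without 1h replicate 3. IER3, an early gene linked to cell survival, was at 150, 171 and 191 FPKM and then at 271, 294 and 523 FPKM. IER2 was at 39.7, 46.0 and 46.4 FPKM and then at 60.5, 71.2 and 152 FPKM, with a log2 fold change of 0.98 that was 0.57 without 1h replicate 3. CYR61, a secreted matrix protein, was at 18.2, 15.0 and 12 FPKM and then at 32.4, 22.1 and 24.1 FPKM. The groups were apart in all 4 genes, and CYR61 was highest in replicate 1. NR4A2, an orphan nuclear receptor, was at 2.30 ± 0.261 FPKM (SD, n = 3) at 0 h and 4.74 ± 0.883 FPKM at 1 h, and KLF10, a zinc finger repressor, at 28.6 ± 2.94 and 47.2 ± 5.10 FPKM. EGR2 was listed at 0 in each 0 h library and at 0.542, 0.107 and 2.91 FPKM at 1 h. MYC (184, 154 and 146 FPKM and then 143, 159 and 132 FPKM) and KLF2 (15.4 ± 1.65 and 13.5 ± 1.28 FPKM) had lower means at 1 h, with groups that overlapped.

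The genes that restrain MAP kinase signalling, many of them induced by it, formed the other list with groups apart in most members. Of 18 genes 17 passed the filter, 9 (52.9%, against 6.35% of all genes) had every 1 h library above every 0 h library, 0 had every one below, and 0 were called by limma (9 at an unadjusted p under 0.05). The median log2 fold change was 0.36 as deposited and -0.12 in TPM, which is 0.41 above that of all genes on that scale. In TPM 0 of the 17 had every 1 h library above and 3 (17.6%, against 34.6% of all genes) had every one below. In TPM over transcripts of at least 300 bases 9 (52.9%, against 4.78% of all genes) lay above and 0 below, with a median of 0.36. Of the phosphatases that remove activating phosphates from ERK and related kinases, 4 had groups apart. DUSP2 was at 8.88, 8.19 and 7.46 FPKM at 0 h and at 13.4, 13.1 and 31.3 FPKM at 1 h (log2 fold change 1.07, SE 0.37, and 0.66 without 1h replicate 3). DUSP1 was at 4.46, 4.11 and 4.53 FPKM and then at 9.14, 7.05 and 10.3 FPKM (0.93, SE 0.21, limma adjusted p = 0.878). DUSP5 was at 78.8, 68.0 and 53.4 FPKM and then at 121, 91.1 and 101 FPKM (0.65, SE 0.19). DUSP6 was at 60.3, 66.7 and 60.4 FPKM and then at 69.4, 84.5 and 88.7 FPKM (0.36, SE 0.11). Within the same family DUSP4 (24.9 ± 2.92 and 25.5 ± 4.33 FPKM) and DUSP7 (12 ± 0.657 and 10.6 ± 3.38 FPKM) overlapped between the groups. The Sprouty inhibitors of receptor signalling SPRY1, SPRY2 and SPRY4 had groups apart, with log2 fold changes of 0.49, 0.39 and 0.58, as did ERRFI1, an inhibitor of the EGF receptor kinase (0.37), and PHLDA1 (0.55). ETV4 and ETV5, transcription factors downstream of ERK, had -0.15 and 0.04.

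AREG and EREG encode amphiregulin and epiregulin, ligands of the EGF receptor. AREG was at 169, 171 and 154 FPKM at 0 h and at 234, 227 and 249 FPKM at 1 h (log2 fold change 0.52, SE 0.11, limma adjusted p = 0.621), and EREG was at 128, 129 and 140 FPKM and then at 197, 167 and 166 FPKM (0.42, SE 0.17). The hg19 annotation also holds AREGB, a near-identical copy that shares reads with AREG, at 86.2 ± 6.33 and 121 ± 13.6 FPKM, so the division between the copies is uncertain. These were the 2 members of 7 tested (28.6%, against 6.35% of all genes) with every 1 h library above, and without 1h replicate 3 there were 4 (57.1%, against 13.0%). TGFA, HBEGF, BTC, NRG1 and the receptor EGFR overlapped, with log2 fold changes of 0.05 to 0.26, and none was called. In TPM the list's median was -0.33, which is 0.21 above that of all genes. PIM1, a serine/threonine kinase that belongs to no list, had the smallest p of the genes not called. PIM1 was at 3.70, 4.29 and 4.73 FPKM and then at 10.0, 7.94 and 9.32 FPKM (1.02, SE 0.16, limma adjusted p = 0.320), and the value without 1h replicate 3 was 1.00.

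**Figure D2:**
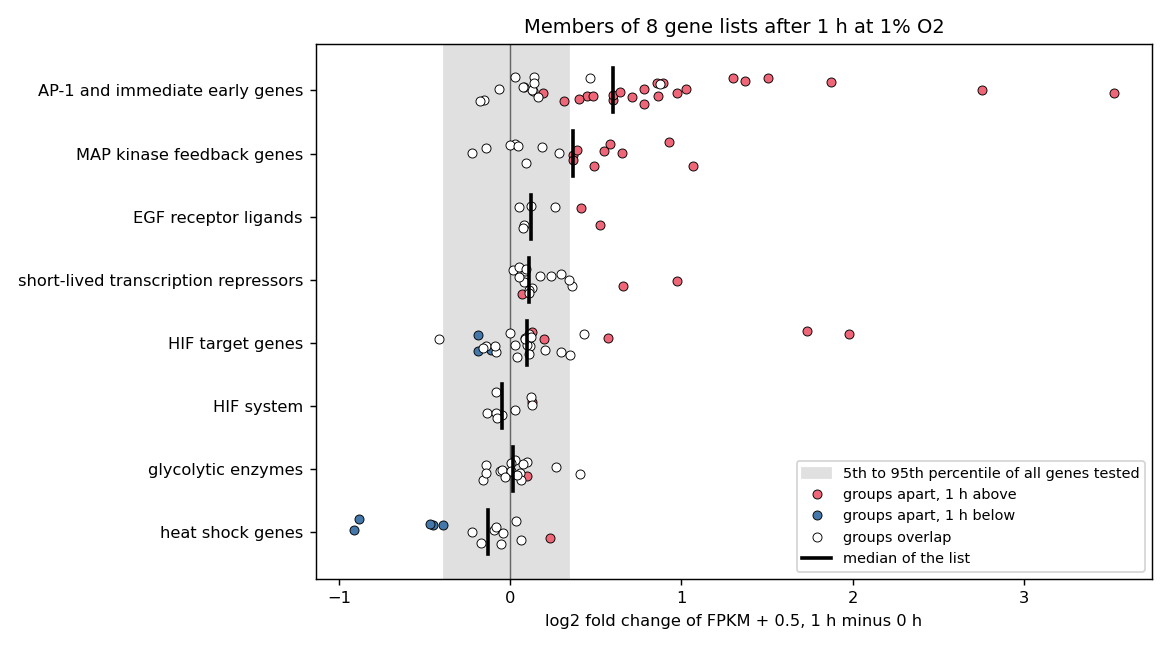
Log2 fold change of FPKM + 0.5, 1 h minus 0 h, of each member of 8 gene lists (points) with the list median (black bar), where the grey band spans the 5th to the 95th percentile of all genes tested (-0.39 to 0.34). Most filled red points, members with every 1 h library above every 0 h library, sit in the immediate early and MAP kinase feedback lists, and the values are as deposited: in TPM the median of all genes is -0.54 and no list has a median above 0.

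The HIF response gave no call at 1 h. Of 28 HIF target genes 27 passed the filter (LOX did not), 5 (18.5%, against 6.35% of all genes) had every 1 h library above every 0 h library, 3 (11.1%, against 7.13%) had every one below, and 0 were called by limma. The 5 became 8 (29.6%) without 0h replicate 3 and also without 1h replicate 1, against 12.6% and 12.3% of all genes, and in TPM 2 lay above (7.41%, against 0.216%) and 6 below (22.2%, against 34.6%). Unadjusted p was under 0.05 in 2, both with a higher mean. The median log2 fold change was 0.10, and in TPM -0.49, which is 0.05 above all genes. DDIT4, an inhibitor of mTOR complex 1, was at 11.6, 14.6 and 20.6 FPKM at 0 h and at 31.3, 32.2 and 226 FPKM at 1 h. BHLHE40, a transcriptional repressor, was at 2.68, 4.18 and 6.42 FPKM and then at 9.71, 9.60 and 36.3 FPKM. Replicate 3 was the highest library in both groups for both genes. The log2 fold change of DDIT4 was 1.98 (SE 0.75) with all libraries and 1.04 without 1h replicate 3, and that of BHLHE40 was 1.73 (SE 0.66) and 1.11. ANKRD37 (1.80 ± 0.0561 and 2.94 ± 0.570 FPKM, SD, n = 3), MXI1 (14.2 ± 0.749 and 16.4 ± 1.19 FPKM) and EGLN1 (18.5, 17.6 and 18.7 FPKM and then 20.4, 20.5 and 19.2 FPKM) were the other 3 with groups apart.

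The core of the hypoxia response element, ACGTG on either strand, was found in 21.4% of all promoters in the RefSeq table and in 18 of the 32 promoters matched for the HIF target list (56.2%). It was also in 10 of the 35 promoters of the immediate early list (28.6%), among them those of EGR1, EGR2, IER2 and MAFF, and in 2 of the 20 of the MAP kinase feedback list (10.0%), those of DUSP1 and DUSP2. The DDIT4 window is shown because DDIT4 had the highest fold change of that list, with the core in capitals.
DDIT4, chr10:72273789-72273813, plus strand: aacgttgcttACGTGcgcccggagt

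VEGFA, the angiogenic growth factor, was at 15.2, 17.5 and 17.2 FPKM at 0 h and at 17.2, 14.4 and 18.3 FPKM at 1 h, with a 95% interval of the log2 fold change of -0.29 to 0.29. CA9, a carbonic anhydrase used as a marker of hypoxia, was at most 0.14 FPKM at 0 h and was listed at 0 in each 1 h library. SLC2A1, the glucose transporter GLUT1, was at 75.7, 74.7 and 72.9 FPKM and then at 65.4, 69.9 and 60.7 FPKM (log2 fold change -0.19, SE 0.09, limma adjusted p = 0.997), and P4HA2 and HILPDA were the other 2 members whose 1 h libraries all lay below. KDM3A, NDRG1, BNIP3, PFKFB3 and ADM overlapped between the groups. Of the 18 glycolytic enzymes 1 had every 1 h library above (LDHB, 5.56%, against 6.35% of all genes) and 0 had every one below, and without 1h replicate 1 there were 4 above (22.2%, against 12.3%). GAPDH was at 2485 ± 36.8 FPKM at 0 h and 2498 ± 152 FPKM at 1 h, with an interval of -0.23 to 0.24.

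The oxygen sensing machinery itself was expressed at both times, and 9 of its 10 genes passed the filter (HIF3A did not). HIF1A was at 56.6, 62.9 and 62.4 FPKM at 0 h and at 70.8, 68.6 and 58.7 FPKM at 1 h (log2 fold change 0.12, SE 0.12). EPAS1, which encodes HIF-2 alpha, was at 4.51 ± 0.782 and 4.63 ± 1.02 FPKM (0.03, SE 0.20). The groups overlapped in both, and in ARNT (0.13), ARNT2 (-0.05), VHL (-0.08), HIF1AN (-0.08), EGLN2 (-0.14) and EGLN3 (-0.08). EGLN1, the main HIF prolyl hydroxylase, was the 1 member (11.1%, against 6.35% of all genes) with groups apart (0.13, SE 0.08), and its log2 fold change in TPM was -0.47. Without 1h replicate 3, 2 members lay above (22.2%, against 13.0% of all genes). Without 0h replicate 3, 2 lay below (22.2%, against 17.3%). None was called by limma, and 0 had an unadjusted p under 0.05.

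As deposited, heat shock genes were the list with the highest share of members whose 1 h libraries all lay below, while in TPM their share of 50% was passed by Wnt target (75%), jumonji demethylase (57.1%), glycolytic (55.6%) and cholesterol synthesis (53.8%) genes, against 34.6% of all genes on that scale. All 14 passed the filter, 5 (35.7%, against 7.13% of all genes) had every 1 h library below every 0 h library and 1 (7.14%) had every one above. None was called by limma, and 4 had an unadjusted p under 0.05 with a lower mean. The list's median log2 fold change was -0.13, and -0.76 in TPM, 0.22 under all genes. In TPM over transcripts of at least 300 bases 6 members (42.9%, against 7.98% of all genes) lay below and 0 above, with a median of -0.14. HSPA1A, an inducible HSP70, was at 291, 251 and 228 FPKM at 0 h and at 137, 118 and 151 FPKM at 1 h (log2 fold change -0.92, SE 0.30, limma adjusted p = 0.997). HSPA1B, at 385 ± 45.6 and 209 ± 29.2 FPKM, encodes the same protein from a near-identical neighbouring gene, so the 2 genes are not separate measurements. HSPA8, the constitutive HSP70, was at 2473, 2254 and 2177 FPKM and then at 1800, 1587 and 1650 FPKM (-0.45, SE 0.17). The HSP70 cochaperones DNAJB1 (163 ± 18.1 and 120 ± 28.1 FPKM) and BAG3 (57.1 ± 7.13 and 43.1 ± 2.67 FPKM) also had groups apart. The HSP90 genes HSP90AA1 and HSP90AB1 had log2 fold changes of 0.03 and -0.08, and the mitochondrial chaperonin HSPD1 had 0.06, all with groups that overlapped. HSF2, a heat shock factor, was the member with every 1 h library above (12.2 ± 0.683 and 14.5 ± 0.955 FPKM), and its log2 fold change was 0.23 as deposited and -0.36 in TPM.

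**Figure D3:**
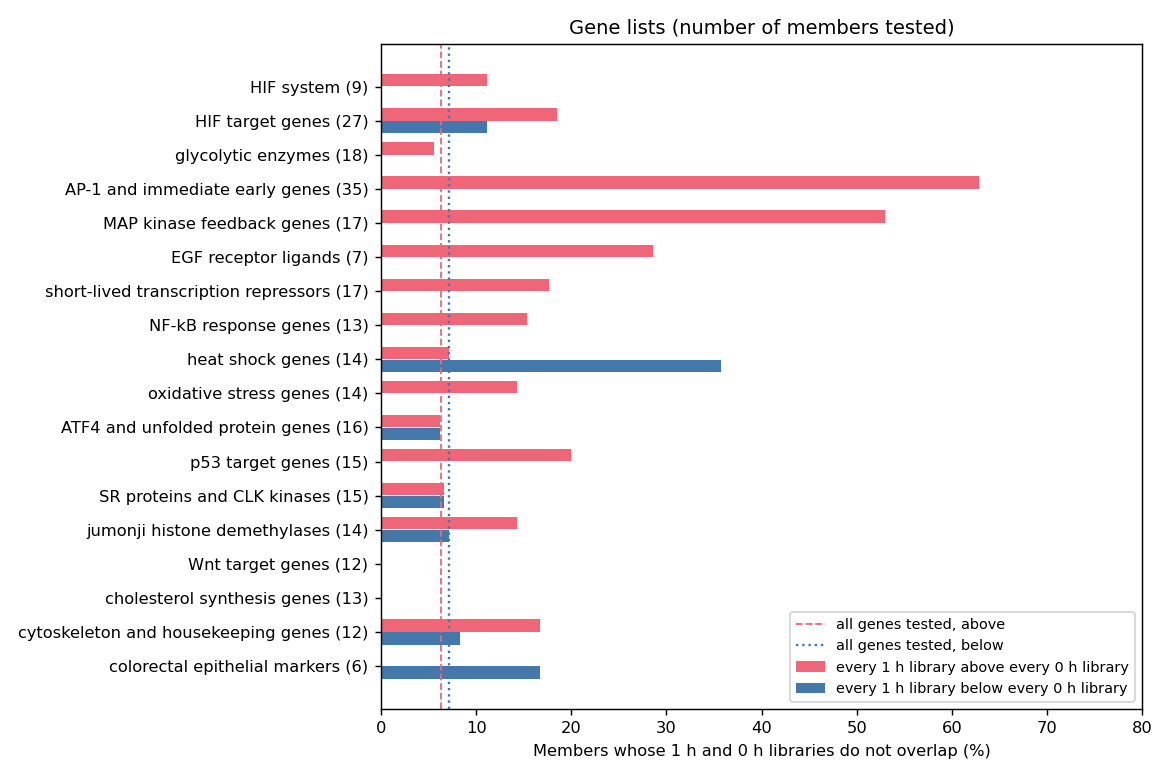
Share of the tested members of 18 gene lists (number tested in brackets) with every 1 h library above (red) or below (blue) every 0 h library, with the shares over all 15758 genes as vertical lines. The immediate early (62.9%) and MAP kinase feedback (52.9%) lists reach highest above, and the heat shock list (35.7%) highest below on the values as deposited. In TPM the shares are 17.1% and 0% above and 50% below for these lists, and 0.216% above and 34.6% below over all genes. In TPM over transcripts of at least 300 bases they are 60%, 52.9% and 42.9%, against 4.78% above and 7.98% below. The lists were chosen with earlier results of these data known.

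The remaining 10 genes per direction with the smallest p and groups apart were of mixed function, and none was called. Higher at 1 h, beside EGR1, FOS, MAFF, PIM1, AREG and DUSP1, were RNF103, an E3 ubiquitin ligase of the endoplasmic reticulum (4.26, 3.63 and 4.20 FPKM and then 6.79, 5.57 and 6.42 FPKM), BACH1, a bZIP repressor and partner of the small MAF proteins (5.88 ± 0.536 and 8.35 ± 0.572 FPKM), FOXN3, a forkhead repressor (2.91 ± 0.272 and 4.83 ± 0.354 FPKM), and the noncoding AC093642.5 (1.13 ± 0.299 and 2.51 ± 0.274 FPKM). Within RNF103, a transcript of 2551 bases without a defined coding sequence had means of 1.94 FPKM at 0 h and 3.92 FPKM at 1 h. The protein-coding transcript had means of 1.91 and 1.95 FPKM. RNF103 shares exons with the read-through gene RNF103-CHMP3, which was at 0.799, 1.26 and 2.01 FPKM at 0 h and at most 0.0203 FPKM at 1 h, so the division of reads between them is uncertain. BACH1 and AREG had log2 fold changes of -0.11 each in TPM. Lower at 1 h were NBPF1 (24.4 ± 1.69 and 13.3 ± 2.90 FPKM), the pseudogenes WASH7P (18.6 ± 1.04 and 12.7 ± 1.41 FPKM) and ANKRD19P (10.4 ± 0.489 and 6.76 ± 0.884 FPKM), ZNF324 (2.36 ± 0.383 and 1.01 ± 0.245 FPKM), HSF4 (2.59 ± 0.829 and 1.11 ± 0.0518 FPKM), LY6G5B, the kinesin KIFC2, ADM5, CCDC130 and the histone deacetylase HDAC10 (9.19 ± 1.09 and 6.05 ± 1.01 FPKM). NBPF1, WASH7P and ANKRD19P belong to families of near-identical copies, and their reads could be divided among members. Adjusted p from limma was 0.621 to 0.997 over these 10.

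For the remaining lists the counts are read against 6.35% of all genes above and 7.13% below. Of 17 short-lived transcription repressors 3 (17.6%) had every 1 h library above, among them HES1, a Notch-responsive repressor (5.84, 6.78 and 6.47 FPKM and then 11.0, 11.5 and 17.1 FPKM), and SERTAD3. Of 15 p53 target genes 3 did, among them GADD45A, a stress sensor (23.2, 21.4 and 21.7 FPKM and then 32.5, 31.2 and 31.9 FPKM), while CDKN1A and MDM2 overlapped. NF-kB response genes had 2 of 13 (15.4%) and oxidative stress genes 2 of 14 (14.3%). Jumonji histone demethylases, themselves oxygen-dependent enzymes, had 2 of 14 (14.3%). ATF4 and unfolded protein genes had 1 of 16 above (6.25%), and 3 above (18.8%, against 9.58% of all genes) without 1h replicate 2. The ATF4 list had 3 below (18.8%, against 12% of all genes) without 1h replicate 3. Cytoskeleton and housekeeping genes, the control list, had 2 of 12 above (16.7%) and 1 below (8.33%). Without 0h replicate 3 the control list had 4 below (33.3%, against 17.3% of all genes). Splicing regulators of the SR and CLK families had 1 of 15 above and 1 of 15 below (6.67% each), and Wnt target and cholesterol synthesis genes had 0 in either direction. Without 0h replicate 3, 6 of the 13 cholesterol synthesis genes lay above (46.2%, against 12.6% of all genes), and 3 of the 12 Wnt target genes lay below (25%) without 0h replicate 1 or 1h replicate 3, against 10.7% and 12% of all genes. Leaving out 1 library gave up to 6 repressors, 5 p53 targets and 4 NF-kB genes above, where 8.88% to 13.0% of all genes lay above. None of these members was called by limma. Median log2 fold changes of these lists ran from -0.09 for Wnt target genes to 0.14 for p53 target genes as deposited, and all were under 0 in TPM, from -0.64 to -0.23.

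The most abundant members of the lists that were not described above are given by their log2 fold change as deposited. ACTB, ACTG1, TUBA1B and PPIA, which encode actins, a tubulin and a cyclophilin, had -0.05, 0.04, -0.03 and 0.06. The glycolytic enzymes ALDOA and ENO1 had -0.05 and -0.14, and the HIF targets ERO1L, an oxidase of the endoplasmic reticulum, and STC2 had 0.11 and 0.03. The groups overlapped in all 8 genes. KRT18 and KRT19, keratins of simple epithelia, had -0.13 and -0.03. Among the repressors HES4, ID1, ID2 and TGIF1 had 0.18, 0.30, 0.01 and 0.08, and BAX, a p53 target that promotes apoptosis, had -0.03.

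For NF-kB, the subunits NFKB1 and NFKB2 had -0.05 and -0.01 and the inhibitors NFKBIA and NFKBIB 0.17 and -0.15, with groups apart in NFKBIA. The ferritins FTH1 and FTL had -0.02 and 0.14, and the antioxidant enzymes NQO1 and TXNRD1 had 0.05 and 0.03. HSPA5, the main chaperone of the endoplasmic reticulum, had -0.05, and ASNS and PSAT1, enzymes of amino acid synthesis, had 0.22 and 0.16. The splicing factors SRSF1, SRSF2, SRSF5 and SRSF7 had 0.00, -0.12, 0.02 and -0.06. Of the histone demethylase list, KDM3B had every 1 h library above (0.24) and JMJD6 every one below (-0.15), while KDM2A (-0.16) and KDM5C (-0.02) overlapped. CCND1, SOX4 and SOX9 of the Wnt list had -0.15, 0.03 and 0.00. In cholesterol synthesis FDFT1 and FDPS had 0.04 and -0.02, and IDI1 had 0.45 and, without 1h replicate 3, 0.29. None of these genes was called by limma, and in TPM the median of all genes is -0.54.

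Transcripts left out of the gene sums were tested on their own. Of 2234 that passed the filter 0 were called by limma at 1 h, and 118 (5.28%) had an unadjusted p under 0.05. Without 1h replicate 3, 2 were called.

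Replicate 3 was the highest of the 1 h libraries in 35.3% of all genes, in 18 of the 35 immediate early genes and in 12 of the 13 cholesterol synthesis genes. It exceeded the next 1 h library by more than 2-fold in 155 genes, among them 7 early genes (FOS, JUNB, EGR1, EGR2, IER2, IER5L and ZFP36), DUSP2, the HIF targets DDIT4 and BHLHE40, and GDF15 (27.9, 37.5 and 125 FPKM at 1 h). At 2 h replicate 3 was again the highest for EGR1 (52.8, 38.0 and 206 FPKM) and DDIT4 (71.7, 126 and 537 FPKM). The share of FPKM in short transcripts in replicate 3 was the highest of its group at 0, 1, 2 and 24 h (70.4%, 84.1%, 85.9% and 87.6%), and at 2 h replicates 1 and 2 held 85.2% and 74.5%. Its part in these values was not tested.

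The later libraries share the 0 h controls with this comparison, so the values are given side by side. At 2 h, 30 genes (0.19%) were called higher and 12 (0.0762%) lower than at 0 h, and at 24 h 3601 (22.9%) and 4909 (31.2%). EGR1 had log2 fold changes against 0 h of 3.53, 2.76 and 1.33 at 1, 2 and 24 h, and FOS of 2.76, 1.86 and 1.58, so both means were highest at 1 h. MAFF had 0.86, 1.73 and 1.96, DUSP5 had 0.65, 1.21 and 1.52, and PIM1 had 1.02, 1.52 and 2.28, with limma adjusted p of 0.00140, 0.0276 and 0.00553 at 2 h. CYR61 had 0.78, 0.77 and -0.09. VEGFA had -0.00, 0.84 and 1.94, ANKRD37 had 0.57, 2.65 and 5.57, and DDIT4 had 1.98, 3.44 and 5.68. HSPA1A had -0.92, -1.69 and -2.32. Of the 27 HIF target genes 0 were called higher at 1 h, 4 at 2 h and 27 at 24 h, and of the 35 immediate early genes 0, 4 and 19.

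**Figure D4:**
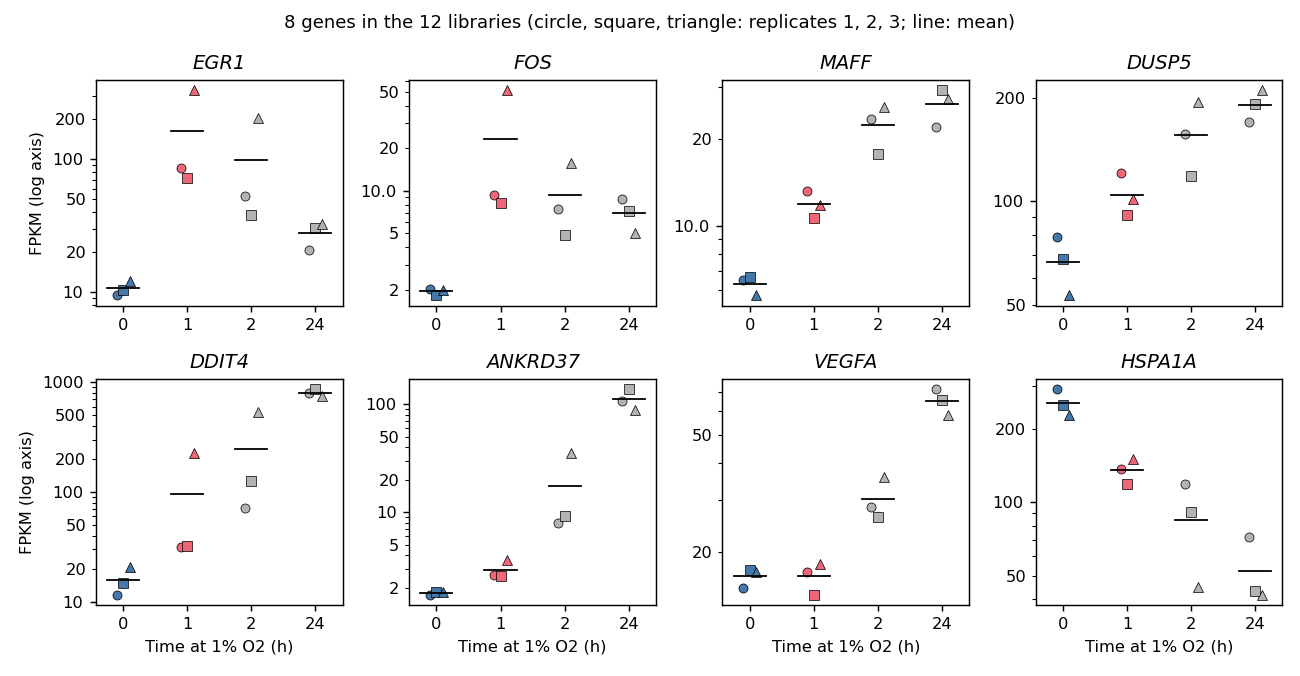
FPKM of 8 genes (log axes, one panel each) in all 12 libraries at 0, 1, 2 and 24 h, spaced evenly on the time axis, with a symbol per replicate and a line at the mean of 3. EGR1 and FOS are highest at 1 h, MAFF, DUSP5 and DDIT4 are higher at 2 h than at 1 h, VEGFA leaves its 0 h level after 1 h, and HSPA1A is lower at each time.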

How the data were processed

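RNA-seq libraries (poly(A), strand-specific, paired 100-base reads) of HCT116 cells were compared, 3 at 0 h and 3 at 1 h of hypoxia. Per the labels and the paper, the authors aligned reads to hg19 with MapSplice 2.1.4, assembled transcripts with strand-aware Cufflinks 2.2.0, merged them with Ensembl 74, and deposited an FPKM value per transcript and library, without read counts.

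Transcripts with FPKM above 0.5 in at least 3 of the 12 libraries and class code = (49238) or j (12924) were summed by gene name, without rescaling between libraries, and tested with limma 3.58.1 (R 4.3.3, eBayes with trend, two-sided, 8 residual degrees of freedom) on log2(FPKM + 0.5). Fold changes are on that scale and understate those of low genes. With 3 libraries against 3, an exact permutation test of one gene cannot go below 0.1, so none was run. Coordinates of genes are from GENCODE 44 lifted to GRCh37. Steps were tested on simulated data. Figures used matplotlib 3.10.9 in Python 3.11.15.

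Genes were named if called, if among the 10 smallest p per direction with groups apart and a mean FPKM of at least 1, if among the 4 uncalled members of a list with the highest mean FPKM, or if part of the HIF system. Not every gene this rule selects is reported here. Further list members given with values, RNVU1-15, AREGB and RNF103-CHMP3 were chosen after their values were seen. The lists were chosen with earlier results of these data known. Alternatives varied the pseudocount, filter, scaling, transcript classes, libraries, block and variance trend.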

Additional observations from a re-analysis of the deposited data

How the results depend on the processing

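The call of 1 gene higher and 0 lower was the same with pseudocounts of 0.1 or 1, a filter of 1 FPKM or none, median-of-ratios scaling, TPM over transcripts of at least 300 bases, exact matches only, names held within a locus, and no variance trend. It became 0 with transcripts of at least 300 bases, and 0 with only the 6 libraries of 0 h and 1 h (654 and 1112 genes at an unadjusted limma p under 0.05). TPM called 56 genes, 11 higher and 45 lower, and 32 past 2-fold at an adjusted p under 0.01, where the median of all genes was -0.54; EGR1, FOS, ADM5 and ZNF324 were among the 56. Leaving out 1 library gave 0 to 3 genes called, 0 to 2 higher and 0 to 2 lower, and 0 to 2 past 2-fold. The call was lost without 1h replicate 2 (adjusted p = 0.0553 for the RNVU1-16 log2 fold change at 1 h); 2 genes were called higher without 0h replicate 2, and 2 lower without 1h replicate 3 (542 at an unadjusted p under 0.05). The 1 gene past 2-fold was 0 with a pseudocount of 0.1, a filter of 1 FPKM, no filter, transcripts of at least 300 bases, only the 6 libraries and the replicate block. Outside the gene sums 0 transcripts were called, and 2 without 1h replicate 3. On leaving out 1 library, the HIF target count with every 1 h library above (5 as reported) ranged from 5 to 8, with 8 without 0h replicate 3 and 8 without 1h replicate 1. Same-numbered replicates of 0 h and 1 h correlated in their deviations from the group mean by 0.271, 0.0737 and 0.316. Unlike numbers correlated by -0.267 to 0.0184, so every library correlated best with its own number. The main fit did not pair the samples by number, and whether the numbers pair them was not tested. The replicate block gave 2 calls (RNVU1-16, and limma adjusted p = 0.0496 for the EGR1 log2 fold change at 1 h). It gave 1112 genes at an unadjusted p under 0.05. The block with only the 6 libraries, added after seeing the data, gave 0 and 2019. Without counts, low genes carry an unknown sampling error.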

Other observations

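Of the 2234 transcripts tested outside the gene sums, 1255 had no reference transcript, 510 overlapped a reference exon and 468 lay antisense to one. The smallest p was that of an unannotated transcript, 412 bases long, found on chromosome 19 from 50605928 to 50606340 (hg19). It was at 0.752, 0.954 and 0.952 FPKM at 0 h and at 0.440, 0.340 and 0.0918 FPKM at 1 h (limma adjusted p = 0.646). Another of 412 bases at 50608991 to 50609403 had the same 3 values at 1 h, so the pair are not separate measurements.

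Immediate early genes were short. Their median span was 6942 bases against 22084 bases over the 15213 tested genes with a GENCODE match, 44332 bases for the HIF targets and 18873 bases for the heat shock genes. It was 16029 bases for the MAP kinase feedback genes. For the 10 genes per direction with the smallest p it was 12805.5 bases (higher at 1 h) and 8270.5 bases (lower), so a short span was not particular to the early genes.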
